A study of Homo sapiens with 6 samples.

Results

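The transcripts described here are those of the Hippo kinase cassette and its upstream scaffolds in the BJ line of human foreskin fibroblasts, a widely used established cell line. The 10 genes are LATS1, LATS2, STK3, STK4, SAV1, MOB1A, MOB1B, NF2, AMOT and AMOTL1, taken as a list of symbols, and all 10 were found among the 14168 genes of the deposited table. Polyadenylated RNA was sequenced from 6 libraries, 3 of wild-type BJ cells given a control siRNA and 3 of wild-type BJ cells given an siRNA against agrin. Agrin, the product of AGRN, is a secreted heparan sulfate proteoglycan that has been described as a matrix input to YAP through merlin and the LATS kinases. The siRNA sequences, the dose and the time after transfection were not stated in the sources used here. Nothing in the labels ties the 3 libraries of a group to separate cultures, and p-values therefore reflect only how these libraries vary, which may be technical.

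In the Hippo pathway the MST kinases, encoded by STK3 and STK4, bind the adaptor salvador (SAV1) and activate the LATS kinases together with MOB1. Active LATS phosphorylates the co-activators YAP and TAZ, which are then kept out of the nucleus and degraded. Merlin (NF2) and the angiomotins (AMOT, AMOTL1) are membrane and junction scaffolds upstream: merlin recruits LATS to the membrane, and the angiomotins bind YAP and merlin directly. Much of this control acts by phosphorylation and binding, which RNA levels do not measure. LATS2 and the angiomotin gene AMOTL2 are also known as transcriptional targets of YAP and TEAD, which close a feedback loop.

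The promoters of LATS2 and AMOT are shown, LATS2 because it was the only member whose window held the core letters bound by TEAD factors, and AMOT because its transcript changed most. Windows run from 250 bases before to 50 bases after an annotated start (RefSeq, GRCh38.p14), are written along the gene's strand, and have the letters GGAATG or their reverse complement in capitals. The LATS2 window is chr13:21061537-21061836 on the minus strand and the AMOT window is chrX:112840782-112841081 on the minus strand.
LATS2: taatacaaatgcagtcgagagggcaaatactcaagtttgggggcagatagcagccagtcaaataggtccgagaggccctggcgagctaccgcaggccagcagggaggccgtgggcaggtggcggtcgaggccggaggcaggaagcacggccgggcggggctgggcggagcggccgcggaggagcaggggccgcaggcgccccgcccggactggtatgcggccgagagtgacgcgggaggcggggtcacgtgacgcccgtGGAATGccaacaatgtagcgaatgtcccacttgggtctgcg
AMOT: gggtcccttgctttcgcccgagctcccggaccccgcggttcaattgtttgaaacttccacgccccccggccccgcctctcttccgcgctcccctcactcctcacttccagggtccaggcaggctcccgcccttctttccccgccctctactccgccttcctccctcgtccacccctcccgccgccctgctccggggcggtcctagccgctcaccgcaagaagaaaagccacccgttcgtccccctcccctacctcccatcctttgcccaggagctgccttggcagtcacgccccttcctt
In LATS2 the match began at base 10 after the start, and the AMOT window held none. A window was listed for 9 of the 10 members, 12 windows in all, and 1 of these 12 held the letters. The letters stood in 14.0% of all 35116 windows and in 11.4% of the 14236 windows of tested genes, so 1 in 12 is near the background. Such a match is a description of the letters, not of a bound site.

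The values are the deposited expression values, here called scaled CPM. They behave as reads per gene divided by a scaled library size, which is an inference, since the sources do not state the scaling. The libraries held 42736368 to 48246613 reads on listed genes. AGRN, the targeted gene, had 744, 804 and 790 scaled CPM in the controls, against 290, 297 and 265 in the agrin siRNA libraries (values are given in the order of replicates 1 to 3 throughout). This is 36.4% of the control mean (log2 fold change -1.46, SE 0.05, limma adjusted p = 3.19e-06). Fold changes are differences of log2(scaled CPM + 0.5), agrin siRNA minus control, and a gene is called at a limma adjusted p under 0.05 over all 13206 tested genes. By that rule 28.7% of tested genes were called, 13.5% lower and 15.2% higher. Of the 10 fibroblast markers listed, all were tested and their summed level was 51570 to 54268 scaled CPM in controls and 49197 to 51585 in agrin siRNA libraries. Collagens carry most of that sum, and 4 of the 10 markers were called lower and 0 higher. The other 6 were not called and went both ways. COL3A1 (log2 fold change 0.16), VIM (0.11) and THY1 (0.02) were higher. COL1A2 (-0.04), DCN (-0.07) and PDGFRA (-0.07) were lower. FAP, fibroblast activation protein, fell by 26.7% (log2 fold change -0.45, limma adjusted p = 0.000384), and the growth factor receptor gene PDGFRB fell by 21.8% (-0.36, adjusted p = 0.00326). LUM, for the matrix protein lumican, fell by 19.0% (-0.31, adjusted p = 0.0107), a call lost without control replicate 1 (adjusted p = 0.0587), and the collagen gene COL1A1 fell by 17.0% (-0.27, adjusted p = 0.0429), a call lost without any one control or without agrin siRNA replicate 3 (adjusted p up to 0.172). The part of these markers in the members' values was not tested. Of 8 endothelial markers CDH5 was at 0 in all 6 libraries and TEK was detected at up to 9.31 scaled CPM; the other 6, and the 6 leukocyte markers, were not analysed here. The epithelial markers CDH1 and EPCAM stayed below 1 scaled CPM in every library, while 4 of the 8 epithelial markers were tested. The claudin gene CLDN1 rose from 15.4 ± 1.35 to 38.0 ± 3.44 scaled CPM (SD, n = 3 each; log2 fold change 1.27, limma adjusted p = 1.35e-05). The keratin gene KRT19 fell by 26.8% (adjusted p = 0.0158) and KRT8 fell by 13.5% (adjusted p = 0.0102), whereas KRT18 was not called (log2 fold change 0.01). KRT19 lost the call without control replicate 1 or 2 (adjusted p up to 0.0681), and KRT8 without control replicate 1 (0.051). With these opposite changes the summed level of the 8 epithelial markers was 272 to 278 in controls and 274 to 284 in agrin siRNA libraries. In bulk RNA a change in the cells present and a change of RNA per cell cannot be told apart.

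Transcripts of the scaffold AMOT fell by 36.5% with the agrin siRNA, and those of its paralog AMOTL1 by 13.5%. The kinase gene LATS2 fell by 10.5%, and the LATS co-activator gene MOB1A fell by 8.72%. No member was called higher. The remaining 6 members did not pass the threshold, among them both MST kinase genes and merlin. In all, 4 of 10 members were called lower, where 13.5% of all tested genes were, and 0 were called higher. Leaving out 1 library moved the count of members called lower from 1, without control replicate 1, to 7, without agrin siRNA replicate 2, and over all tested genes from 940 to 2586. AMOT was called in each of these 6 fits, while AMOTL1, LATS2 and MOB1A each lost the call in at least 1. The median log2 fold change of the 10 members was -0.14, and that of all tested genes was 0.00 to 2 decimals. The members' values in each library are shown in the plot relative to the control mean.

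**Figure D1:**
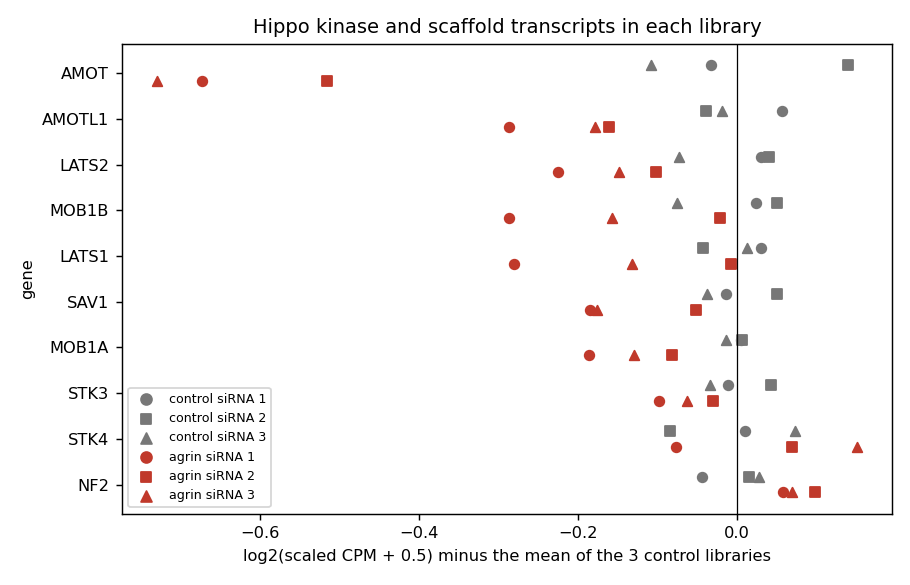
Log2(scaled CPM + 0.5) of each of the 10 genes in each of the 6 libraries, minus the mean of the 3 control libraries (gray: control siRNA; red: agrin siRNA; marker shapes give the replicate). AMOT lies farthest to the left, between -0.73 and -0.51 in the agrin siRNA libraries, while NF2 lies between 0.06 and 0.10.

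Among the scaffolds, AMOT encodes angiomotin, a junction and actin-associated protein that binds the WW domains of YAP. Its 3 control libraries gave 23.9, 27.0 and 22.6 scaled CPM, and the 3 agrin siRNA libraries gave 15.1, 16.9 and 14.5. All 3 agrin siRNA libraries lay below all 3 controls. The means were 24.5 ± 2.22 and 15.5 ± 1.25 (SD, n = 3 each), and the log2 fold change was -0.64 (SE 0.08, 95% interval -0.82 to -0.46; adjusted p = 0.000478 by limma). Only 1.26% of tested genes had a log2 fold change as low or lower. The call was kept in all 16 alternative settings, with log2 fold changes from -0.70 to -0.57. Between 613 and 1062 reads stand behind each AMOT value. The AMOT gene spans positions 112774503 to 112840815 of the X chromosome (GRCh38, minus strand). It yields long and short protein forms, of which the short one lacks the YAP-binding part; a count per gene does not separate them.

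AMOTL1, angiomotin-like protein 1, is a paralog that also binds YAP. It was at 143, 134 and 135 scaled CPM in the controls and at 112, 123 and 121 in the agrin siRNA libraries, again without overlap. The log2 fold change was -0.21 (SE 0.05, 95% interval -0.31 to -0.10, limma adjusted p = 0.0093), but leaving out control replicate 1 ended the call (adjusted p = 0.0558). The family's other gene, AMOTL2, a YAP and TEAD target named here after its values were seen, ranged from 130 to 154 in controls and from 112 to 138 in agrin siRNA libraries. Its groups overlapped and it was not called (log2 fold change -0.24, limma adjusted p = 0.0624).

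NF2 encodes merlin, a tumour suppressor of the ERM family, and was among the members that did not pass. It read 45.9, 47.8 and 48.3 scaled CPM in controls and 49.3, 50.7 and 49.7 in agrin siRNA libraries. Its agrin siRNA values all lay above the controls, which was so for 23.7% of all tested genes. The log2 fold change of 0.08 had a 95% interval from -0.02 to 0.17 (limma adjusted p = 0.198).

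In the kinase cassette, LATS2 was at 56.0, 56.4 and 52.1 scaled CPM in controls and at 46.9, 51.1 and 49.5 in agrin siRNA libraries, with no overlap. The means of 54.9 ± 2.38 and 49.1 ± 2.12 (SD, n = 3 each) gave a log2 fold change of -0.16 (95% interval -0.27 to -0.05, limma adjusted p = 0.0413). This call stood near the threshold. Leaving out control replicate 1 or 2 ended it (adjusted p = 0.153 and 0.147), as did leaving out agrin siRNA replicate 1 or 3 (adjusted p = 0.0826 and 0.102) or fitting limma with no variance trend (0.0709). LATS1, the other LATS kinase, was at 44.7, 42.5 and 44.1 in controls and at 36.0, 43.5 and 39.9 in agrin siRNA libraries. Agrin siRNA replicate 2 fell among its controls. The log2 fold change of LATS1 was -0.14, with a 95% interval from -0.29 to 0.01 (limma adjusted p = 0.146). Without agrin siRNA replicate 2 it was -0.21 and passed (adjusted p = 0.0104).

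MOB1A and MOB1B encode the near-identical MOB1 proteins, which bind LATS and raise its activity. MOB1A was the more abundant, at 189, 189 and 187 scaled CPM in controls and 165, 178 and 172 in agrin siRNA libraries, without overlap. Its log2 fold change was -0.13 (95% interval -0.22 to -0.04, limma adjusted p = 0.031). The call was lost without any one of 5 libraries, with adjusted p between 0.0532 and 0.117, and kept without agrin siRNA replicate 2. It was also lost without the variance trend (adjusted p = 0.0699) and with the replicate number as a block (0.0504). MOB1B was at 44.9, 45.7 and 41.8 in controls and at 36.0, 43.4 and 39.5 in agrin siRNA libraries, and the groups overlapped. Its log2 fold change of -0.15 was similar to that of MOB1A, with a wider 95% interval of -0.31 to 0.00 (limma adjusted p = 0.119), and it passed without agrin siRNA replicate 2 (adjusted p = 0.00876). The exons of MOB1B overlap those of DCK on the same strand, so the assignment of their shared reads is uncertain; DCK was at -0.20 on the log2 scale (adjusted p = 0.0689 by limma).

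SAV1, the salvador adaptor that couples MST to LATS, was at 63.6, 66.4 and 62.5 scaled CPM in controls and at 56.4, 61.9 and 56.7 in agrin siRNA libraries. The groups did not overlap, but the log2 fold change of -0.14 (95% interval -0.25 to -0.03) missed the threshold (limma adjusted p = 0.0629). It passed without agrin siRNA replicate 2 (adjusted p = 0.00682) and when libraries were rescaled without mitochondrial and the 10 most abundant genes (0.0289). ATL1, on the other strand, shares exon sequence with SAV1 and rose (0.33 on the log2 scale, adjusted p = 0.00791 by limma); the strand setting of the counting is not known.

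The MST kinase genes showed the smallest differences. STK3, encoding MST2, was at 28.7, 29.8 and 28.2 in controls and at 26.9, 28.3 and 27.6 in agrin siRNA libraries, with overlap, for a log2 fold change of -0.06 (95% interval -0.17 to 0.04, limma adjusted p = 0.344). STK4, encoding MST1, was at 54.3, 50.8 and 56.8 in controls and at 51.1, 56.6 and 60.0 in agrin siRNA libraries. Its log2 fold change of 0.05 had a 95% interval from -0.10 to 0.19 (limma adjusted p = 0.608). Neither interval reached the value of AMOT.

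**Figure D2:**
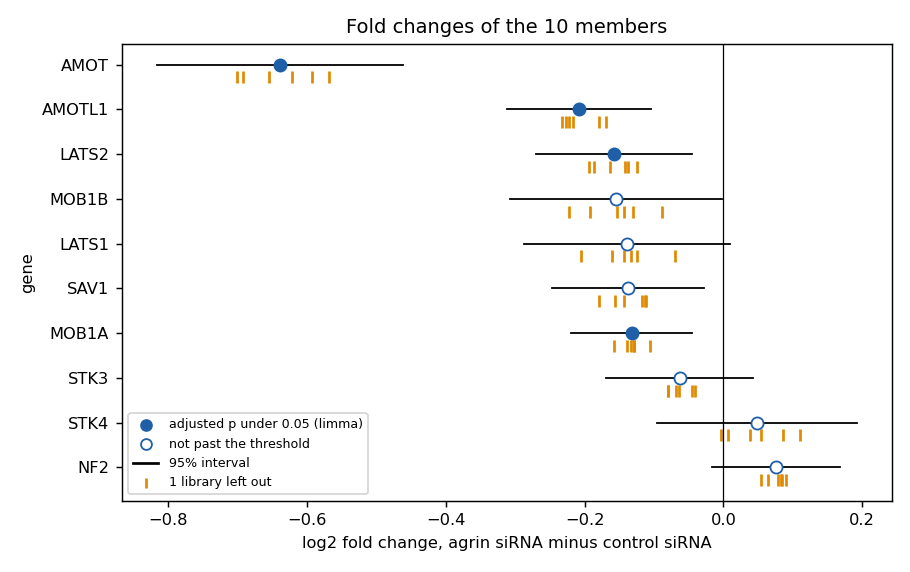
Log2 fold change of the 10 genes with 95% intervals from limma (filled points: adjusted p under 0.05; open points: not past the threshold) and, as orange ticks, the estimate when each library is left out in turn. AMOT at -0.64 stands apart from the other 9 genes, which lie between -0.21 and 0.08.

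Counted over all 10 members, the 3 agrin siRNA libraries lay below the 3 controls for 5 genes (AMOT, AMOTL1, LATS2, MOB1A and SAV1), above them for NF2, and overlapped them for 4. Over all tested genes the shares were 21.5% below and 23.7% above. With 3 libraries a group the smallest p of an exact permutation test is 0.1, and each of these 6 genes had that value. Groups that do not overlap always give this value, so it adds nothing to the counts.

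The agrin siRNA libraries differed among themselves in the same way for nearly all members. Agrin siRNA replicate 1 was the lowest of its group for 9 of the 10 genes, and AMOT, lowest in replicate 3, was the exception. Agrin siRNA replicate 2 was the highest for 9 of 10, all except STK4. Among all tested genes, replicate 1 was the lowest of the 3 for 36.8% and replicate 2 the highest for 38.6%. The median difference of the members from the control mean was -0.20 in agrin siRNA replicate 1, -0.04 in replicate 2 and -0.14 in replicate 3 on the log2 scale, and between -0.03 and 0.03 in the controls. The median over all tested genes stayed between 0.00 and 0.01 in size in every library. With agrin siRNA replicate 2 left out 7 members were called lower, and with replicate 1 left out 2 were.

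The members share a feature that moved with these libraries, the length of their transcripts. The union of annotated exons (GENCODE release 29) ran from 5578 bases for LATS2 to 12597 bases for STK3, with a median of 8572.5 bases against 4923.5 bases for all tested genes that matched. All 10 members lay in the longer 2 length quartiles. In the longest quartile of tested genes, which holds 6 members, the median difference from the control mean was -0.10 in agrin siRNA replicate 1, -0.01 in replicate 2 and -0.05 in replicate 3, and in the shortest quartile it was 0.10, 0.03 and 0.05. In the longest quartile 19.6% of genes were called lower with a median log2 fold change of -0.05, and the 6 members there (STK3, STK4, LATS1, MOB1B, AMOT and AMOTL1) had a median of -0.15 with 2 called. In the next quartile 15.9% were called lower with a median of -0.02, and the 4 members there had a median of -0.13 with 2 called. The part of transcript length in the members' values was not tested.

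**Figure D3:**
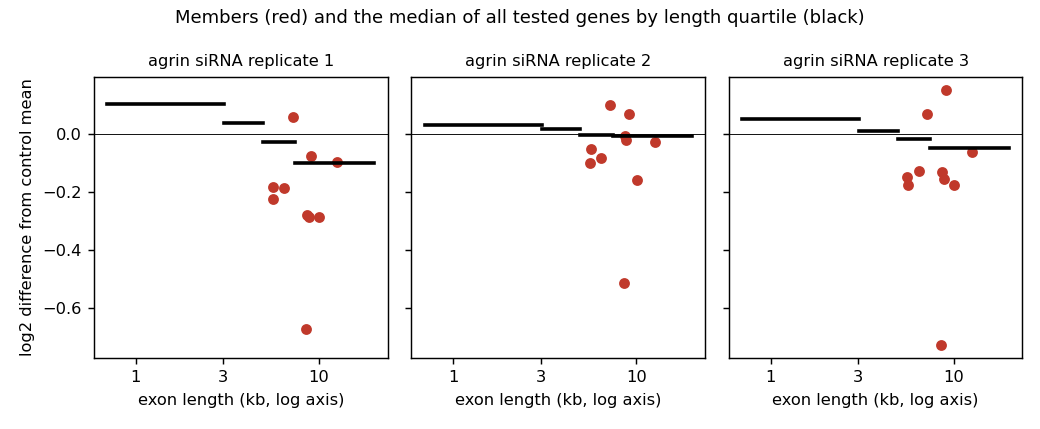
Difference from the control mean (log2 scale) against exon length (kilobases, log axis) in each agrin siRNA library. Red points are the 10 members and black bars are medians of all tested genes in each length quartile, drawn between 0.7 and 20 kb. In replicate 1 the bars step down from 0.10 to -0.10, and most members lie below them.

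Per kilobase of exon, which allows genes to be compared, MOB1A had the highest level in control cells at 29.2 ± 0.224 scaled CPM per kb (SD, n = 3). AMOTL1 followed at 13.7 ± 0.480, SAV1 at 11.4 ± 0.363 and LATS2 at 9.84 ± 0.426. In the middle of the order were NF2 at 6.60 ± 0.176 and STK4 at 5.95 ± 0.329. LATS1 at 5.06 ± 0.134 and MOB1B at 5.01 ± 0.231 were the only neighbours in the order whose control libraries overlapped. AMOT, at 2.88 ± 0.261, and STK3, at 2.29 ± 0.0638, were the least abundant, and AMOT stood at 1.83 ± 0.147 per kb in the agrin siRNA libraries, below STK3 at 2.19 ± 0.0530. The exon union counts rare exons too, so a level per kb is an approximation.

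Within each pair of paralogs the ratio of the transcripts does not depend on how a library was scaled. The AMOT to AMOTL1 log2 ratio was -2.55, -2.29 and -2.55 in the controls, and -2.85, -2.82 and -3.02 with the agrin siRNA. The groups did not overlap, and the ratio was lower by a mean log2 difference of -0.43. The exact two-sided permutation p was 0.1, the smallest possible, and 0.4 after Benjamini-Hochberg adjustment over the 4 pairs. The LATS1 to LATS2 ratio averaged -0.32 ± 0.08 in controls and -0.30 ± 0.08 in agrin siRNA libraries (SD, n = 3 each), a difference of 0.02 (exact permutation p = 0.7). The MOB1A to MOB1B ratio differed by 0.02, from 2.08 ± 0.06 to 2.10 ± 0.08 (exact permutation p = 0.8, n = 3 each). The STK3 to STK4 ratio was -0.89 ± 0.12 in controls (SD, n = 3) and -0.91, -0.99 and -1.10 in agrin siRNA libraries, a difference of -0.11 (exact permutation p = 0.4). The libraries of the groups overlapped in these 3 pairs, and their adjusted p was 0.8 each. The longest stretch of identical bases between annotated transcripts of a pair was 32 bases, for STK3 and STK4, and 29 for MOB1A and MOB1B, whose coding sequences were 79.5% identical over 648 aligned bases.

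**Figure D4:**
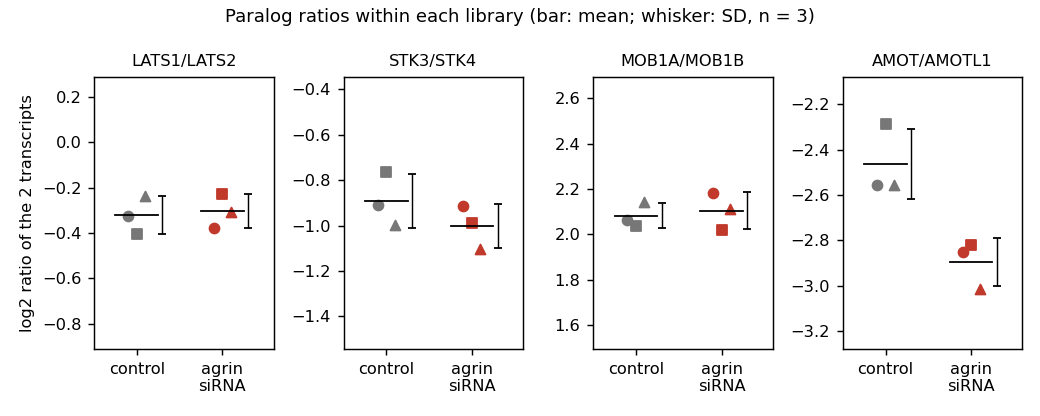
Log2 ratio of the transcripts of each paralog pair in each library (gray: control siRNA; red: agrin siRNA; bar: mean; whisker: SD, n = 3). All panels span the same range of log2 units. AMOT to AMOTL1 is the pair whose groups do not overlap, with control values from -2.55 to -2.29 and agrin siRNA values from -3.02 to -2.82.

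The tested genes whose log2 values followed AMOT most closely over the 6 libraries were MAP2K6, a kinase that activates p38 (Pearson r = 0.997), SNX2, a sorting nexin of endosomes (0.997), and TLNRD1, a talin rod domain protein that bundles actin (0.997). MAP2K6 fell by 38.8% (log2 fold change -0.65, limma adjusted p = 0.00127). With 2 groups of 3 libraries, any gene that differs between the groups in the same direction correlates with AMOT, so these values only describe the order of likeness.

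Among other genes of the pathway, 9 MAP4K and TAO kinases were tested, which can phosphorylate LATS or MST in parallel; 1 was called higher and 1 lower, with a list median of 0.02. MAP4K2 rose from 22.9 ± 1.63 to 27.4 ± 0.739 scaled CPM (log2 fold change 0.26, limma adjusted p = 0.0125), and TAOK3 fell from 65.7 ± 0.473 to 60.3 ± 1.72 (-0.12, adjusted p = 0.0412; SD, n = 3 each). Of 17 tested STRIPAK genes, whose phosphatase complex acts against MST, 1 rose and 1 fell (median 0.00). STK24, an MST-related kinase of that complex, rose by 0.17 on the log2 scale (limma adjusted p = 0.013), and the scaffold partner CTTNBP2NL was lower at -0.21 (adjusted p = 0.0384). Among 8 NDR kinases, further MOB proteins and furry scaffolds, 1 rose and 2 fell (median -0.01). MOB3C rose (0.25), and MOB3A (-0.17) and FRY (-0.28), a large scaffold of NDR kinases, fell, while the NDR kinase genes STK38 and STK38L were not called.

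Junction and polarity adaptors went both ways, with 3 of 20 tested lower, 2 higher and a median of -0.10. DLG1, the discs large scaffold, fell from 109 ± 2.57 to 83.6 ± 4.06 scaled CPM (SD, n = 3 each; log2 fold change -0.38, limma adjusted p = 0.000395). PATJ (-0.25), a Crumbs complex protein that binds angiomotins, and the polarity scaffold PARD3 (-0.22) fell, and SCRIB, the scribble scaffold, rose (0.22). LLGL1, a scribble partner, was the other higher gene (0.19). Of 6 LIM proteins from families with members that bind LATS, LPP was called (-0.26, limma adjusted p = 0.0108), while ZYX (-0.01) and TRIP6 (0.09) were not. Of 4 tested FAT and Dachsous genes, FJX1 was called (0.18, limma adjusted p = 0.0277) and the giant cadherin genes FAT1 (-0.20, adjusted p = 0.121) and DCHS1 (0.16, adjusted p = 0.0581) were not. Of 5 tested RASSF genes, RASSF2, whose protein binds MST through a SARAH domain, rose (0.66, limma adjusted p = 0.0014), and the more abundant RASSF1 (0.05) and RASSF3 (-0.05) were not called. LPP, LLGL1, FJX1 and RASSF2 are named because they were called.

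Among 13 tested ubiquitin ligases, tankyrases and related factors that act on LATS, merlin or the angiomotins, 1 rose and 1 fell. NEDD4, a ligase described for both LATS and angiomotins, rose from 105 ± 5.34 to 134 ± 16.5 scaled CPM (SD, n = 3 each; log2 fold change 0.35, limma adjusted p = 0.0112). TNKS, tankyrase, which marks angiomotins for degradation, fell (-0.22, adjusted p = 0.0184). The list median was -0.05.

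Downstream, 4 of 8 YAP, TAZ, TEAD and VGLL genes fell and 0 rose, with a median of -0.20. WWTR1, which encodes TAZ, went from 90.4 ± 2.72 to 68.0 ± 4.66 (log2 fold change -0.41, limma adjusted p = 0.000617). The cofactor genes VGLL3 (-0.42) and VGLL4 (-0.25) and the factor gene TEAD3 (-0.18) were the others, and VGLL3 had overlapping groups and an adjusted p of 0.045 (limma). Of 12 tested targets used as reporters of YAP and TEAD, 4 rose and 4 fell (median -0.05), LATS2 being among the lower ones. TGFB2 (-1.14) and CTGF (-0.87) fell, and NT5E (1.31) and the tissue factor gene F3 (0.62) rose. CYR61 was not called (0.02, limma adjusted p = 0.863). Neither were NF2 and AMOTL2, which this list also holds. Of the 28 called genes of these lists that are not members, 15 kept the call when each library was left out in turn, among them DLG1, PARD3, SCRIB, LLGL1, FRY, RASSF2, WWTR1, VGLL4, TGFB2, CTGF, NT5E and F3. The other 13 lost it without at least 1 library. Of these, TAOK3, CTTNBP2NL and VGLL3 kept it only without agrin siRNA replicate 2 (adjusted p up to 0.141, 0.145 and 0.147). PATJ lost it without either of control replicates 1 and 2 or of agrin siRNA replicates 1 and 3 (up to 0.114), and FJX1 and TNKS without control replicate 1, control replicate 2 or agrin siRNA replicate 3 (up to 0.117 and 0.0855). MAP4K2, MOB3C and STK24 lost it without control replicate 1 or agrin siRNA replicate 3, MOB3A and TEAD3 without control replicate 1 or 2, NEDD4 without control replicate 2 or agrin siRNA replicate 3, and LPP without control replicate 1 (adjusted p up to 0.0697 among these 7 genes). The lists were compared by counts and medians only, beside 13.5% lower and 15.2% higher over all tested genes.

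**Figure D5:**
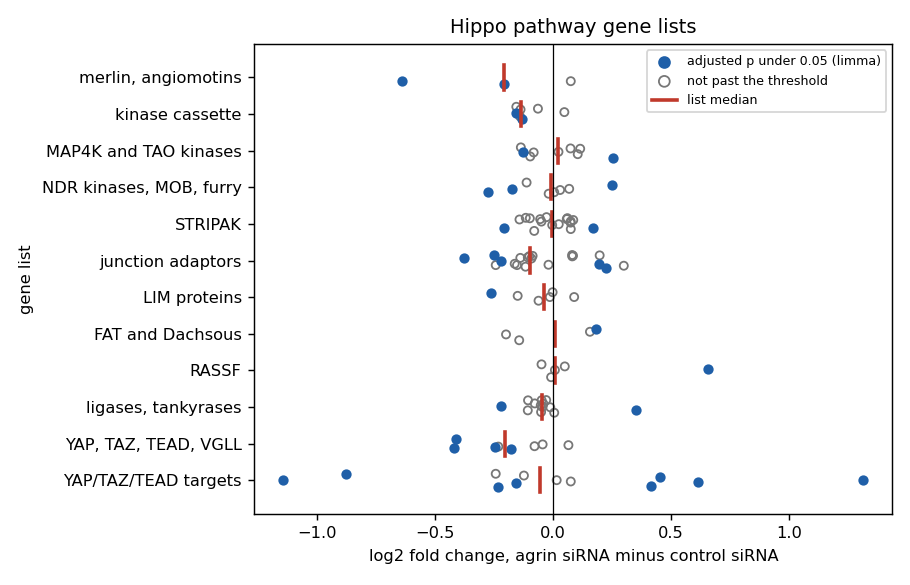
Log2 fold changes of the tested genes of 12 Hippo pathway lists (filled: adjusted p under 0.05; open: not past the threshold; red bar: list median; vertical scatter has no meaning). The scaffold list holds 3 genes, so its median of -0.21, the lowest, is the value of AMOTL1. The list of YAP, TAZ, TEAD and VGLL genes follows at -0.20, while the targets spread from -1.14 to 1.31.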

How the data were processed

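Libraries were stranded and made from polyadenylated RNA (Illumina TruSeq, per the labels' protocols). The tools named in the submitters' processing notes are edgeR, HTSeq, SAMtools and STAR (2.6.1d), and the build is hg38. The sources used here do not state the annotation release, strand setting, gene filter or scaling. The deposited values, called CPM by the table's name, are an expression signal whose columns sum to 1073188 to 1096534. All values (100%) were whole multiples of 1 step per library within 0.01 of a read, which gave whole reads.

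The design had assumed CPM; the same test was used for this scaled signal. Genes with at least 1 scaled CPM in at least 3 libraries (13206 of 14168) were fitted in limma (3.58.1, R 4.3.3) as log2(value + 0.5), two-sided, with the variance prior following a trend, no covariate and Benjamini-Hochberg adjustment over all of them. All 10 members passed the filter. Alternatives were other pseudocounts, filters and scalings, no trend, a replicate block, leaving out each library, and count tests of the recovered reads (DESeq2 1.42.0; edgeR 4.0.16). The test was checked on simulated reads, drawn without the shifts by transcript length described above. The outcome is not reported here, and a member that was not called is not thereby shown to be unchanged. Leaving out libraries for genes of the pathway and marker lists was added after seeing the data. The members, gene lists and tests were chosen with earlier results of these data known. Besides the members and AGRN, genes were named by a rule: per pathway list, the called genes that changed most (up to 4), or, with fewer than 2 called, the 2 genes of highest level, and the 3 genes most correlated with the member that changed most. AMOTL2, CYR61, LPP, LLGL1, FJX1, RASSF2, STK38, STK38L, DCK, ATL1 and the marker genes were named outside it. Symbols were matched to GENCODE release 29 for 14144 genes. At this depth 3 reads correspond to 0.0681 to 0.0761 scaled CPM. Replicates differed beyond sampling noise in every pair. Control pairs gave 4.53 to 6.01 chi-square units per degree of freedom, and agrin siRNA pairs gave 10.6 to 25.6. Plots used Python 3.11.15 and matplotlib 3.10.9.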

Additional observations from a re-analysis of the deposited data

How the results depend on the processing

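AMOT kept its call and direction in all 16 alternatives, AMOTL1 in 15, LATS2 in 11 and MOB1A in 9. Leaving out each library gave 1 to 7 members called lower and 0 called higher, and 1121 to 2538 higher and 940 to 2586 lower genes over the whole table. The lowest of these counts came without control replicate 1, which left AMOT as the called member, and the highest without agrin siRNA replicate 2. Without agrin siRNA replicate 3, 1251 genes were higher, 1118 lower and 2 members called lower; without control replicate 2 the values were 1257, 1063 and 2. Without agrin siRNA replicate 1, 2 members were called lower. Without the variance trend 2 members were called lower; the cause was not tested. The log2 fold change of STK4 ran from -0.0033 without agrin siRNA replicate 3 to 0.1106 without replicate 1, and was not called in either. Rescaling without mitochondrial and the 10 most abundant genes gave 5 members lower, with 1574 genes higher and 2260 lower, against 2005 and 1783 as reported. On the recovered reads edgeR and DESeq2 each called 4 members lower.

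Whether the replicate numbers pair the libraries is not known. The deviations of same-numbered libraries from their group means correlated at -0.04, 0.17 and 0.20 for numbers 1, 2 and 3. Control replicates 2 and 3 correlated best with their own number, and control replicate 1 with agrin siRNA replicate 3 (0.15). Deviations centred within a group of 3 depend on each other, so these correlations cannot decide the pairing. With the replicate number as a block, 3 members were called lower, with 1905 genes higher and 1775 lower; control and agrin siRNA replicates did not all correlate best with their own number. The paralog ratio differences under this block were those reported (0.0184, -0.1118, 0.0230 and -0.4307 for LATS, MST, MOB1 and angiomotin pairs). Each value of a member rested on 613 to 7673 reads.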
